A study of Danio rerio with 2 samples.

Results

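The genes of the vascular endothelial growth factor (VEGF) receptors and their neuropilin co-receptors were followed across the cells of the embryonic zebrafish heart. They are *kdrl*, *kdr*, *flt1*, *flt4*, *nrp1a*, *nrp1b*, *nrp2a* and *nrp2b*, taken by symbol, and these 8 of the 32057 listed genes all had unique molecular identifiers (UMIs, each counting 1 captured molecule) in both libraries. Hearts were dissected at 72 or 48 h post fertilization (hpf) from fish that carried a pair of reporter transgenes, *Tg(kdrl:nls-mCherry)*, expressed in endothelial cells, and *Tg(cd41:GFP)*, expressed in thrombocytes and blood progenitors. The labels name no other allele and no treatment. Cells with mCherry alone and cells with both reporters were sorted and pooled again before droplet sequencing from the 3′ end of the transcripts. There was 1 library per age, with 4125 cells (median 6316 UMIs per cell) at 72 hpf and 2665 cells (median 10411) at 48 hpf, and 4 barcodes occurred in both. The mCherry reporter is driven by the *kdrl* promoter and marks nuclei, so the sort selected on the activity of that promoter and the level of *kdrl* is not independent of the gate.

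VEGF ligands act through receptor tyrosine kinases on endothelial cells. Zebrafish carry a pair of Vegfr2 genes, *kdrl* and *kdr*, which transmit Vegfa signals for vessel growth, while *flt1* (Vegfr1) binds Vegfa tightly and, also as a soluble form, limits how much of it reaches Vegfr2. The receptor encoded by *flt4* (Vegfr3) takes up Vegfc signals and is known for its role in veins and lymphatic vessels. Neuropilins have no kinase. Nrp1 is a co-receptor for Vegfa, Nrp2 mainly for Vegfc, and both also bind class 3 semaphorins. In the heart, *kdrl* is widely used to mark the endocardium, the endothelium that lines the chambers and gives rise to the valves.

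Cells were clustered without the 8 genes and without the other genes of the VEGF pathway, and clusters were named by fixed marker genes. All such names end in "-like", and they can differ from those of the study. Of 17 clusters, 13 took a name. There were 378 valve endocardial-like cells at 72 hpf and 268 at 48 hpf, with 117 lymphatic-like cells at 72 hpf and 196 at 48 hpf. Valve interstitial-like cells (343 at 72 hpf and 2 at 48 hpf) and chamber endocardial-like cells (1018 at 72 hpf and 3 at 48 hpf) could be described at 72 hpf only. Clusters named by cell cycle markers formed an S-phase-like class (378 at 72 hpf and 739 at 48 hpf) and a G2/M-like class (284 at 72 hpf and 484 at 48 hpf). The S-phase-like class at 48 hpf held 1886 cells under a coarser clustering and 0 with 50 principal components. Results on it thus hold for the main setting only. There were 388 blood-like cells at 72 hpf and 15 at 48 hpf, and 1219 cells at 72 hpf and 958 at 48 hpf stayed unnamed. The labels describe the loading of the sorted blood cells differently for each age, so the numbers of blood-like cells are not compared between them. All cells outside the blood-like and valve interstitial-like clusters are called endothelial-like, which gave 3394 cells at 72 hpf and 2648 at 48 hpf.

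Levels of naming markers are given as a description, not as a check, because the names were drawn from them. There is a reservation for the lymphatic-like cells. At 72 hpf, *alcama* was at 826 CPM (the UMIs of a gene in a class, scaled to the same total of UMIs for every class) in the valve endocardial-like cells and at 4.04 in the chamber endocardial-like cells, whereas *tmem88a* was at 58.9 CPM in the valve endocardial-like and 2152 in the chamber endocardial-like cells. At 48 hpf *alcama* was at 1222 CPM in the valve endocardial-like cells, against 376 in the other endothelial-like cells, among them 635 in the unnamed cluster 2. The S-phase-like cells at 48 hpf had 1441 CPM of the chamber marker *tmem88a*, in 99.2% of cells, against 1103 CPM in all endothelial-like cells. That class can thus hold chamber endocardial cells as well. The collagen gene *col1a2* stood at 2830 CPM in the valve interstitial-like cells at 72 hpf, against 496 in the endothelial-like cells. In the lymphatic-like cells *lyve1b* was at 957 CPM at 72 hpf and 352 at 48 hpf, with under 1 CPM in the other endothelial-like cells of either age. Their *prox1a*, the transcription factor that defines lymphatic identity, reached only 29.2 CPM at 72 hpf and 19.8 at 48 hpf, against 12.0 and 6.55 CPM in the other endothelial-like cells. Both *lyve1b* and *stab2*, which also was high in this class, mark veins as well as lymphatic vessels in zebrafish, so the name covers endothelium of a lymphatic and venous kind. The paralogue *lyve1a* was at 3556 CPM in the lymphatic-like cells at 72 hpf and had no UMI in the whole 48 hpf library. Whether both libraries were counted alike for this gene was not tested.

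Every level below is a CPM over the pooled UMIs of a class, with its 95% Poisson interval. With 1 library per age nothing was replicated, no test was run, and each interval covers counting error only. Ratios carry an exact interval of the same kind. A gene counted as higher or lower when its ratio was at least 2 or at most 0.5, the interval left out 1, and it reached 10 CPM in either group. Age and library cannot be told apart. Valve endocardial-like cells were mostly in cluster 7 at 72 hpf and cluster 12 at 48 hpf, and lymphatic-like cells in clusters 15 and 14. S-phase-like cells were mostly in cluster 8 at 72 hpf and cluster 3 at 48 hpf, and G2/M-like cells in clusters 13 and 5. A ratio between the ages within a class thus compares cells that clustered apart, and need not be change within 1 population.

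The 8 genes formed 3 main profiles across the heart. The lymphatic-like cells carried *flt4* and *nrp2b* together with the highest class level of *kdrl*. They carried *nrp2a* mainly at the younger age, and there mostly in a small group of cells whose *kdrl* was low for the class. The valve endocardial-like cells carried much *flt1*, with *kdrl* and *nrp1a* at low levels. The chamber endocardial-like cells carried *kdrl* and *nrp1a* with little *flt1*. Valve interstitial-like cells carried *nrp1a* and had low levels of the receptor kinases, and most blood-like cells had none of the 8 genes.

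**Figure D1:**
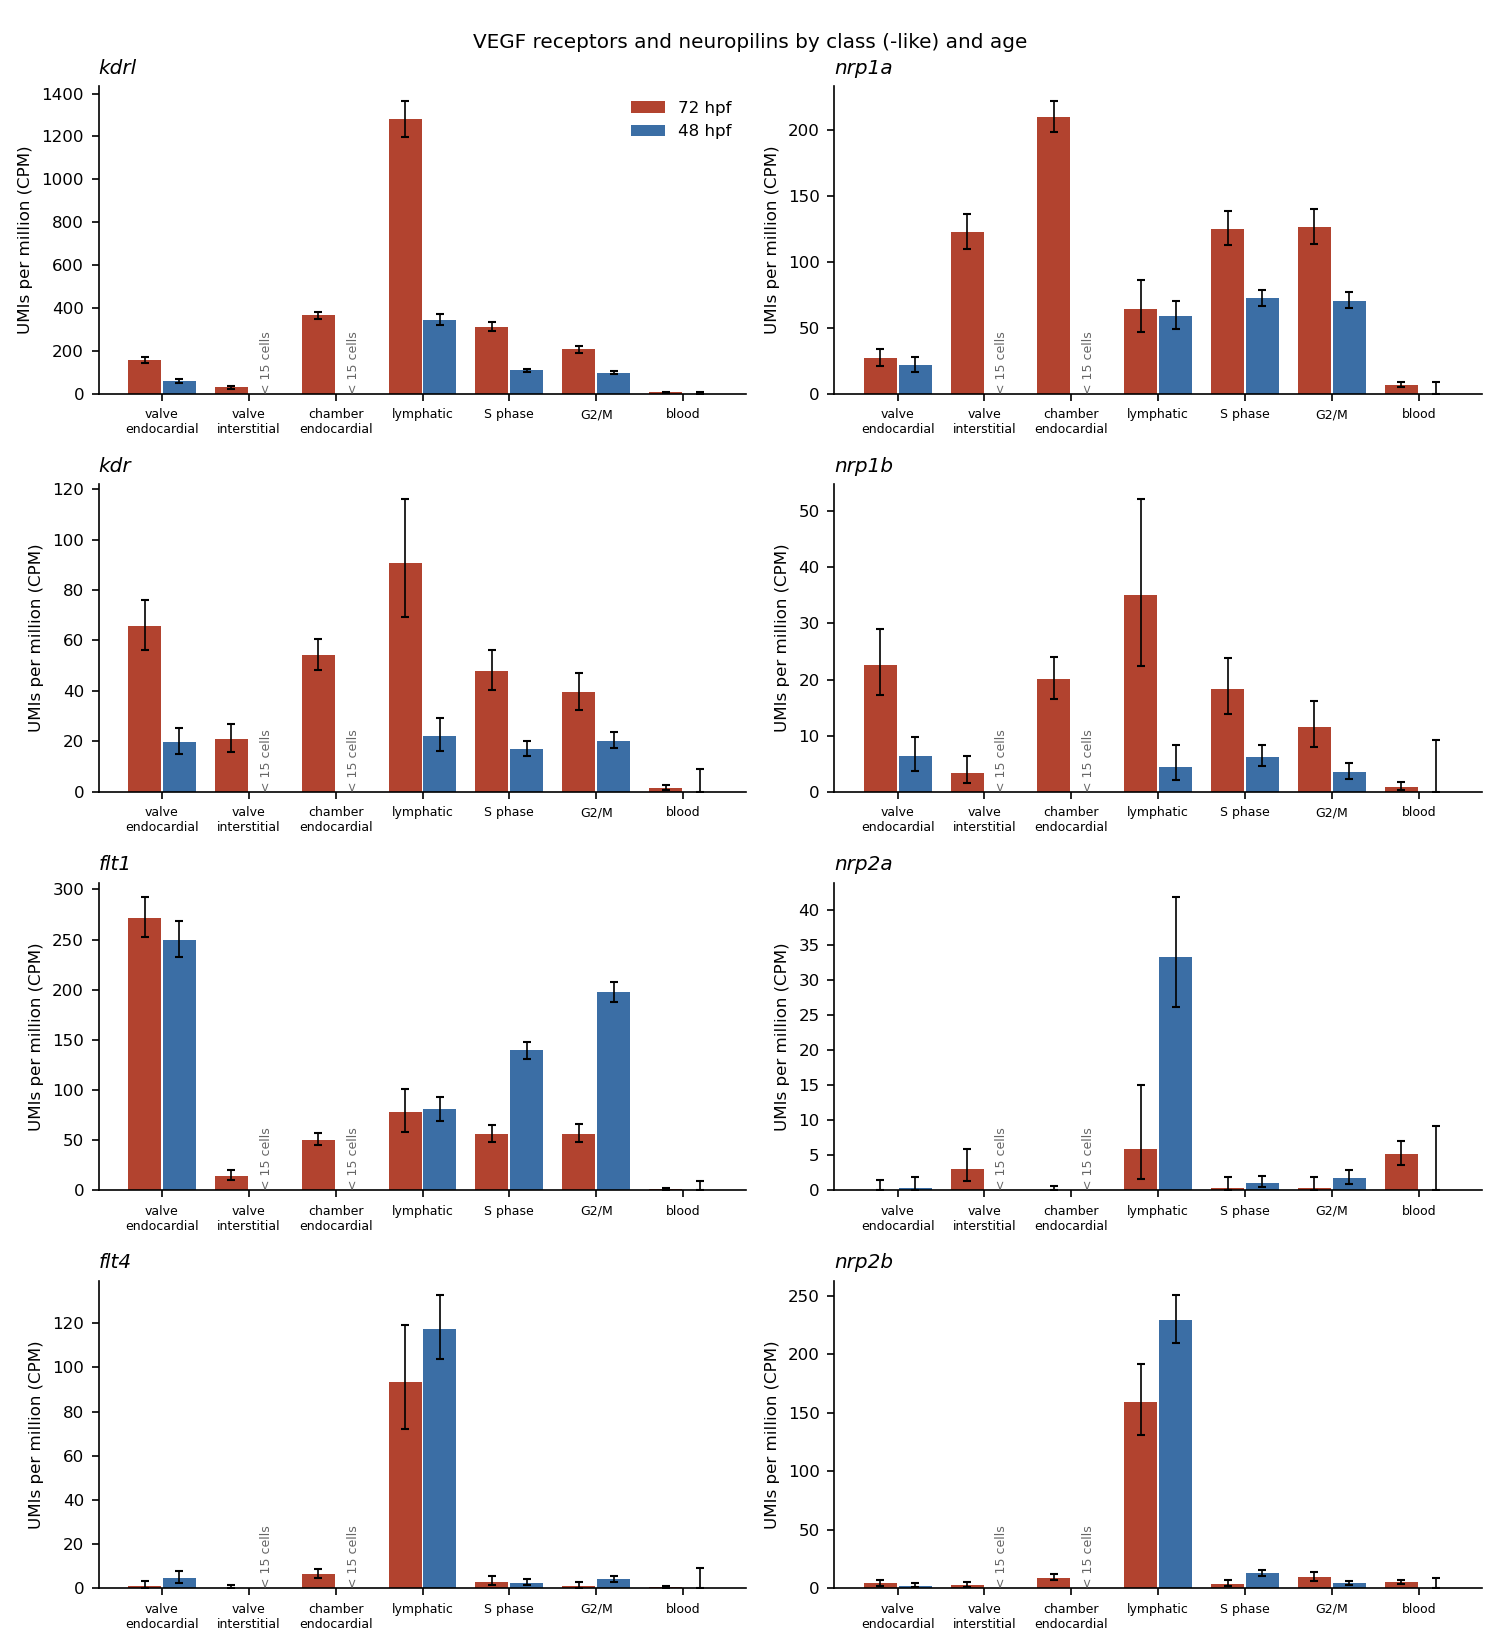
Level of each gene in CPM (vertical axis, linear, a scale of its own per panel) by class, with 72 hpf in red left of 48 hpf in blue. Bars are pooled CPM of 1 library and lines the 95% Poisson interval, classes of fewer than 15 cells are not drawn, and *flt4* and *nrp2b* stand high in the lymphatic-like class alone while *flt1* is at 272 CPM at 72 hpf and 250.1 at 48 hpf in the valve endocardial-like class.

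Among the named classes, the Vegfr2 gene *kdrl* (ENSDARG00000105215) was most abundant in the lymphatic-like class at both ages. Its level there was 1279.65 CPM at 72 hpf (interval 1196 to 1367) and 344 at 48 hpf (320.4 to 369.7). The chamber endocardial-like cells had 365 CPM (349.6 to 381) at 72 hpf, and the valve endocardial-like cells had 156 (142 to 172) at 72 hpf and 60.0 (51.6 to 69.4) at 48 hpf. Thus the order from lymphatic-like over chamber to valve endocardial-like cells was wider than the counting error. Valve interstitial-like cells held 29.8 CPM (23.6 to 37.0). Among the unnamed groups, *kdrl* reached 1213 CPM at 72 hpf and 439.8 at 48 hpf in cluster 11, led by *cfd* and *cxcr4a*, and 749 CPM at 72 hpf in cluster 6, led by *gstm.3* and *cdh4*. Over the 17 groups of at least 25 cells in a library, 8 of the 16 neighbouring steps in the order of *kdrl* levels had overlapping intervals.

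The share of cells with a *kdrl* UMI followed the levels. It was 51.9% of the valve endocardial-like, 62.3% of the chamber endocardial-like and 96.6% of the lymphatic-like cells at 72 hpf (median depths 6179, 5130 and 5350 UMIs). In blood-like cells, which were deeper (median 18205.5 UMIs), it was 5.41%. After thinning each cell to 2000 UMIs, these shares were 24.1%, 39.1%, 85.5% and 2.06%. At these depths, cells without a *kdrl* UMI were thus common in a population sorted for *kdrl* promoter activity.

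The other Vegfr2 gene, *kdr* (ENSDARG00000017321), varied less between the classes. At 72 hpf it was at 90.6 CPM (69.4 to 116) in the lymphatic-like, 65.6 (56.3 to 76.1) in the valve endocardial-like, 54.1 (48.2 to 60.5) in the chamber endocardial-like and 20.8 (15.7 to 27.1) in the valve interstitial-like cells. At 48 hpf its level was 22.1 CPM (16.3 to 29.2) in the lymphatic-like and 19.6 (14.9 to 25.2) in the valve endocardial-like cells, whose intervals overlap. Cluster 4, unnamed and led by *wnt5b* and *aqp8a.1*, had 89.4 CPM of *kdr* at 72 hpf with only 169 of *kdrl*. Of the 16 neighbouring steps in the order of *kdr* levels, 15 had overlapping intervals.

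The balance of both Vegfr2 genes therefore differed between classes. Of all *kdr* and *kdrl* UMIs, *kdr* made up 29.6% (exact interval 25.9 to 33.4) in the valve endocardial-like, 12.9% (11.6 to 14.3) in the chamber endocardial-like and 6.61% (5.10 to 8.39) in the lymphatic-like cells at 72 hpf. At 48 hpf the share was 24.6% (19.3 to 30.5) in the valve endocardial-like and 6.02% (4.49 to 7.88) in the lymphatic-like cells. It reached 41.2% in the valve interstitial-like cells and 34.6% in cluster 4, and was 5.54% in cluster 6 at 72 hpf. Capture at the 3′ end may differ between the genes, so the share compares classes and not the abundance of *kdr* with that of *kdrl*. The intervals of the share at both ages overlapped in the valve endocardial-like, lymphatic-like, S-phase-like and G2/M-like cells, which does not show that the shares were equal.

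**Figure D2:**
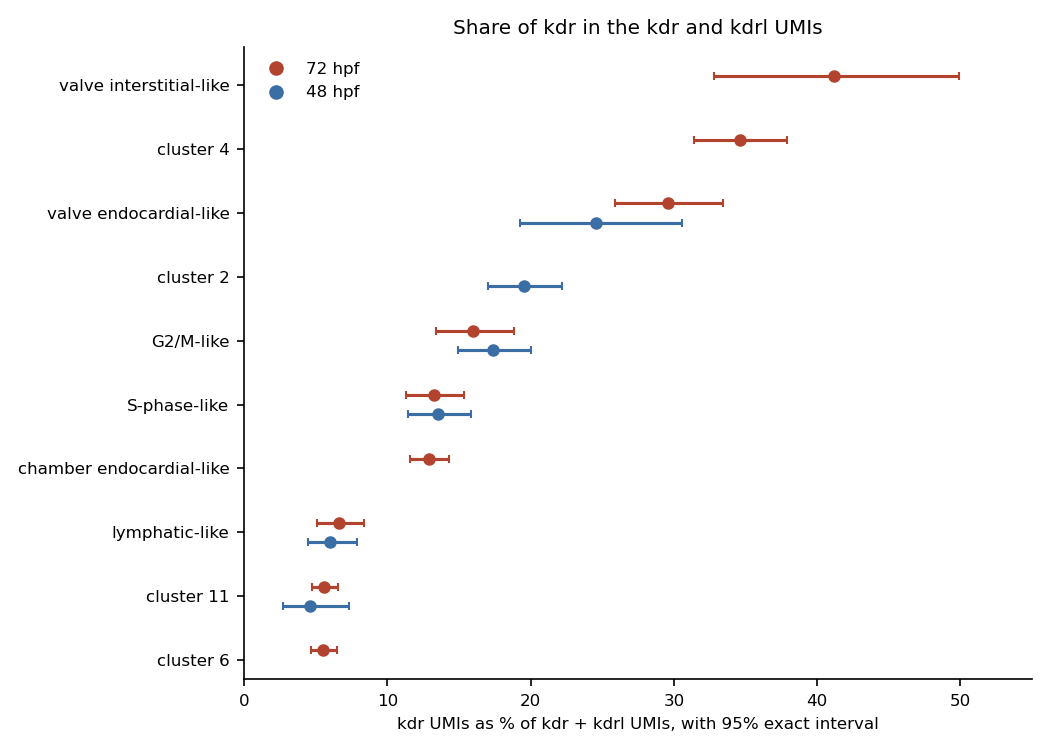
Share of *kdr* among the summed *kdr* and *kdrl* UMIs (horizontal axis, percent) for named classes and unnamed clusters, with 72 hpf in red above 48 hpf in blue. Points are 1 library each and lines the exact 95% interval, and the share runs from 41.2% in valve interstitial-like cells to 5.54% in cluster 6 at 72 hpf.

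The Vegfa-binding receptor gene *flt1* (ENSDARG00000019371) was highest at 72 hpf in the valve endocardial-like class, among the named classes. It was at 272 CPM (252 to 292) in the valve endocardial-like cells, against 50.4 (44.8 to 56.6) in the chamber endocardial-like cells, a ratio of 5.39 (4.69 to 6.20). The lymphatic-like cells had 77.4 CPM (58.0 to 101) and the valve interstitial-like cells 14.5 (10.3 to 19.8). A *flt1* UMI was found in 69.6% of the valve endocardial-like and 19.9% of the chamber endocardial-like cells, or 37.0% and 7.96% after thinning, and in 1.55% of the blood-like cells (0.258% after thinning). Reads from the 3′ end were summed per gene here, so the membrane and soluble forms of *flt1* were not separated.

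At 48 hpf *flt1* was broadly expressed. The valve endocardial-like cells had 250.1 CPM (233 to 269), but cluster 2, an unnamed group of 884 cells, had 330.2. In that cluster *alcama* was at 635 CPM and *has2* at 124, against 1222 and 428 in the valve endocardial-like cells. The chamber marker *tmem88a* was at 1136 CPM in cluster 2 and 234 in the valve endocardial-like cells. The G2/M-like cells had 198 and the S-phase-like cells 139 CPM of *flt1*, and the lymphatic-like cells the least of these, with 80.6 (69.2 to 93.3). High *flt1* was thus a feature of the valve endocardial-like class at 72 hpf, but was shared with most other endothelial-like cells at 48 hpf.

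The Vegfr3 gene *flt4* (ENSDARG00000104453) was at 93.5 CPM (72.0 to 119) in the lymphatic-like cells at 72 hpf and at 117 (104 to 133) at 48 hpf. All other endothelial-like cells together had 2.55 CPM at 72 hpf and 3.13 at 48 hpf, which gave ratios of 36.6 (25.3 to 53.0) and 37.5 (29.4 to 48.3). The chamber endocardial-like cells had 6.50 CPM (37 UMIs) and the valve endocardial-like cells 1.12 (3 UMIs) at 72 hpf. In the valve interstitial-like cells *flt4* had 0 UMIs, which allows up to 1.12 CPM by a limit of 3 counts.

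The Vegfc co-receptor genes stood high in the same class. The level of *nrp2b* (ENSDARG00000038446) was 159 CPM (131 to 192) in the lymphatic-like cells at 72 hpf and 229.6 (210.1 to 250.4) at 48 hpf, against 10.9 and 5.23 CPM in the other endothelial-like cells of these ages. Thus it was 14.6 times higher (11.5 to 18.3) at 72 hpf and 43.9 times higher (36.5 to 53.1) at 48 hpf. At 72 hpf *nrp2b* was uneven outside the class, with 102 of its 252 UMIs there in cluster 6 and 0 in cluster 11. Its paralogue *nrp2a* (ENSDARG00000096546) was scarce, with 15 UMIs in all endothelial-like cells at 72 hpf and 102 at 48 hpf. At 48 hpf it was at 33.3 CPM (74 UMIs) in the lymphatic-like cells, against 0.997 in the other endothelial-like cells. At 72 hpf only 4 UMIs were found in the lymphatic-like cells (5.84 CPM), and none in the valve endocardial-like and chamber endocardial-like cells, which allows up to 1.12 and 0.527 CPM.

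Because *lyve1b* and *stab2* do not separate lymphatic from venous cells, the lymphatic-like cells of each age were clustered again, a step chosen after their values were seen. At 48 hpf a sub-cluster of 28 cells, led by the homeobox gene *tlx2* (437 CPM there and 0 UMIs in the other sub-clusters), held 42 of the 74 *nrp2a* UMIs of the class (104 CPM) and 115 of its 261 *flt4* UMIs (284 CPM, interval 234 to 341). It also had 74.0 CPM of *prox1a*, against 7.57 in the largest sub-cluster, of 84 cells. Its *kdrl* was low for the class, at 192 CPM (152 to 240.2), and *nrp1a* was at 17.3. The largest sub-cluster had 63.1 CPM of *flt4*, 15 UMIs of *nrp2a* and 357 CPM of *kdrl*. In contrast, *nrp2b* was present throughout, between 206 and 316 CPM in the 4 sub-clusters. At 72 hpf the 3 sub-clusters differed in *flt4* (161, 35.7 and 69.1 CPM) and in *nrp2b* (202, 174 and 62.8 CPM), while *kdrl* stayed between 1202 and 1395 CPM.

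**Figure D3:**
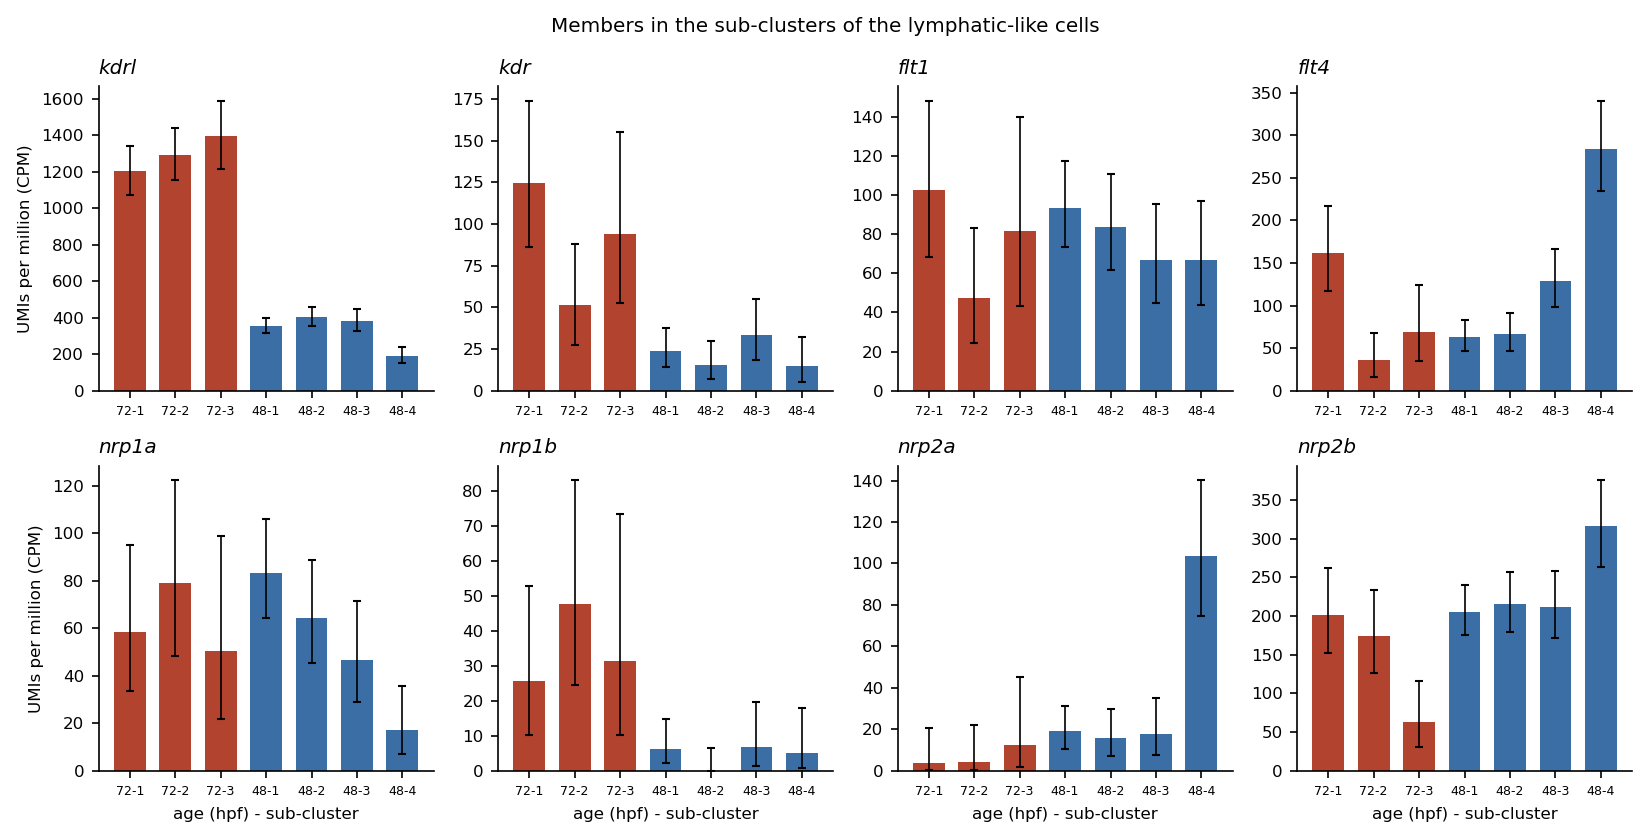
Level of each gene in CPM (vertical axes, linear) in the 3 sub-clusters of the lymphatic-like cells at 72 hpf (red) and the 4 at 48 hpf (blue), with 95% Poisson intervals. The bar 48-4 is the 28-cell group led by *tlx2*, which has the highest *flt4* (284 CPM) and *nrp2a* (104 CPM) of the 7 sub-clusters.

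The Vegfa co-receptor gene *nrp1a* (ENSDARG00000102153) was highest in non-valve endothelium. At 72 hpf it was at 209.8 CPM (198 to 222) in the chamber endocardial-like cells and at 27.0 (21.1 to 34.0) in the valve endocardial-like cells, a ratio of 0.13 for valve over chamber (0.10 to 0.16). The lymphatic-like cells had 64.3 CPM (46.7 to 86.3) and cluster 11 had 211. At 48 hpf it was at 21.6 CPM (16.6 to 27.5) in the valve endocardial-like and 59.0 (49.3 to 70.0) in the lymphatic-like cells, and at 76.6 in cluster 2. Low *nrp1a* thus set the valve endocardial-like cells apart at both ages. After thinning, 6.61% of the valve endocardial-like and 32.3% of the chamber endocardial-like cells had an *nrp1a* UMI at 72 hpf, against 1.55% of the blood-like cells.

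Its paralogue *nrp1b* (ENSDARG00000027290) was sparse. At 72 hpf the levels were 35.1 CPM (22.5 to 52.2) in the lymphatic-like, 22.5 (17.2 to 29.0) in the valve endocardial-like and 20.0 (16.5 to 24.1) in the chamber endocardial-like cells. At 48 hpf they were 4.50 CPM (10 UMIs) in the lymphatic-like and 6.30 (19 UMIs) in the valve endocardial-like cells. All 16 neighbouring steps in the order of its levels had overlapping intervals.

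Valve interstitial-like cells, which form the mesenchymal core of the valves, had a neuropilin at the pooled endothelial-like level and low receptors. Their *nrp1a* was at 122 CPM (109.5 to 136.3), above the 27.0 of the valve endocardial-like and below the 209.8 of the chamber endocardial-like cells. It was close to the 129.9 of all endothelial-like cells pooled at 72 hpf (ratio 0.94, 0.84 to 1.06). In contrast, *kdrl* was at 0.07 times (0.05 to 0.08) and *flt1* at 0.15 times (0.11 to 0.21) the endothelial-like level, and *kdr* at 0.35 times (0.27 to 0.46). A UMI of a neuropilin without any of the 4 receptor kinases was found in 35.3% (30.2 to 40.6) of the valve interstitial-like cells and 9.72% (8.75 to 10.8) of the endothelial-like cells. After thinning these shares were 20.7% (16.5 to 25.4) and 11.6% (10.6 to 12.8). In the chamber endocardial-like cells the share was 14.3% (12.2 to 16.6) before thinning and 18.0% (15.7 to 20.5) after it, which overlaps the interval of the valve interstitial-like cells.

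The number of the 8 genes that passed the call rule was set against the same share over all genes at 10 CPM or more. In valve endocardial-like against other endothelial-like cells, 4 of 6 genes tested were called at 72 hpf (*flt1* higher, *kdrl*, *nrp1a* and *nrp2b* lower), against 20.2% of all genes tested. At 48 hpf 4 of 6 were called, all lower (*kdrl*, *flt4*, *nrp1a* and *nrp2b*), against 17.9%. The other endothelial-like cells of that age included the lymphatic-like cells. These held 261 of the 335 *flt4* UMIs, 510 of the 650 *nrp2b* UMIs and 765 of the 3436 *kdrl* UMIs of that group. In the order of *flt4* levels, the valve endocardial-like cluster 12 stood above clusters 2, 3, 5 and 11 at 48 hpf. Calls with the lymphatic-like cells left out were not tested. In lymphatic-like against other endothelial-like cells, 5 of 7 were called at 72 hpf (*kdrl*, *flt4*, *nrp1b* and *nrp2b* higher, *nrp1a* lower), against 25.3%, and 5 of 7 at 48 hpf (*kdrl*, *flt4*, *nrp2a* and *nrp2b* higher, *flt1* lower), against 16.2%. In valve interstitial-like against endothelial-like cells at 72 hpf, 5 of 6 were called, all lower, against 19.7%. Set against the chamber endocardial-like cells at 72 hpf, 3 of 5 genes were called in valve endocardial-like cells (24.5% of all genes tested) and 4 of 7 in lymphatic-like cells (25.8%). The median gene lay 0.18 higher on the log2 scale in the valve comparison with the chamber and 0.19 higher in the lymphatic one, so these ratios are to be read relative to that shift.

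The valve calls also depended on where the class was drawn. At 72 hpf the unnamed cluster 6, with 749 CPM of *kdrl*, joined the valve endocardial-like class under a coarser clustering or with 50 principal components, and 2 genes were then called, with *kdrl* and *nrp2b* no longer lower. At 48 hpf the count was 2 when cluster 2 was counted as valve endocardial-like, and also 2 under a finer clustering.

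Between the ages, *kdrl* was higher at 72 hpf in every class that could be compared. Over all endothelial-like cells it stood at 441 CPM at 72 hpf and 119 at 48 hpf, a ratio of 3.70 (3.56 to 3.84). The ratio was 2.60 in the valve endocardial-like, 3.72 in the lymphatic-like, 2.88 in the S-phase-like and 2.14 in the G2/M-like cells. The gate selects on this promoter, and whether it was set alike at both ages was not tested. Beside it, *nr4a1*, an immediate early gene that cell dissociation is also known to induce, was 5.25 times higher at 72 hpf (384 CPM, against 73.1 at 48 hpf), and its part in the age differences was not tested.

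Of the other Vegfa receptors, *kdr* rose with *kdrl*, at 58.7 CPM at 72 hpf and 19.5 at 48 hpf over all endothelial-like cells (ratio 3.01, 2.73 to 3.32). Its ratio was 3.35 in the valve endocardial-like and 4.11 in the lymphatic-like cells. By contrast *flt1* was at 94.0 CPM at 72 hpf, against 218 at 48 hpf (ratio 0.43, 0.41 to 0.45). This did not extend to every class: the ratio was 0.40 (0.34 to 0.47) in the S-phase-like and 0.29 (0.24 to 0.34) in the G2/M-like cells, but 1.09 (0.98 to 1.21) in the valve endocardial-like and 0.96 (0.69 to 1.31) in the lymphatic-like cells. The intervals of the cycling classes lay apart from those of the valve endocardial-like and lymphatic-like classes, though no test over replicates was possible. Of the 6619 *flt1* UMIs of the endothelial-like cells at 48 hpf, 2957 were in cluster 2, which had 884 cells at 48 hpf and 0 at 72 hpf.

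Among the co-receptors, *nrp1b* was at 16.9 CPM at 72 hpf and 5.80 at 48 hpf over all endothelial-like cells (ratio 2.90, 2.43 to 3.49), and was called higher in each of the 4 classes. The ratio of *nrp1a* was 1.88 (1.78 to 1.99), short of the rule, with 1.25 (0.88 to 1.78) in the valve endocardial-like cells. The Vegfc receptor *flt4* was lower over all endothelial-like cells (5.17 CPM at 72 hpf and 11.5 at 48 hpf, ratio 0.45), but its ratio in the lymphatic-like cells was 0.80 (0.60 to 1.05). The lymphatic-like cells, which hold most *flt4*, were 117 of 3394 endothelial-like cells at 72 hpf and 196 of 2648 at 48 hpf. For *nrp2a* the lymphatic-like ratio was 0.18 (0.05 to 0.47), from 4 UMIs at 72 hpf and 74 at 48 hpf, most of the 74 in the sub-cluster led by *tlx2*. The ratio of *nrp2b* was 0.69 (0.56 to 0.85) in the lymphatic-like cells and 0.70 (0.61 to 0.80) over all endothelial-like cells, at 15.2 CPM at 72 hpf and 21.7 at 48 hpf, and was not called. In the S-phase-like cells *nrp2b* was called lower (3.87 CPM at 72 hpf and 12.7 at 48 hpf, ratio 0.31, 0.15 to 0.56). In the G2/M-like cells, with 9.52 CPM at 72 hpf and 4.48 at 48 hpf, it was under 10 CPM at both ages and not tested. The median gene lay 0.11 higher at 72 hpf on the log2 scale in the lymphatic-like and in the S-phase-like cells.

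By the call rule, 5 of 7 genes differed between the ages over all endothelial-like cells, against 13.4% of all genes tested. In valve endocardial-like cells 3 of 5 did (22.5%), in lymphatic-like cells 4 of 8 (28.1%), in S-phase-like cells 5 of 6 (18.7%) and in G2/M-like cells 3 of 5 (16%). The genes *kdrl* and *nrp1b* were called higher at 72 hpf in all 5 comparisons and *kdr* in 4 of them. In G2/M-like cells *kdr* had a ratio of 1.94 (1.51 to 2.49).

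**Figure D4:**
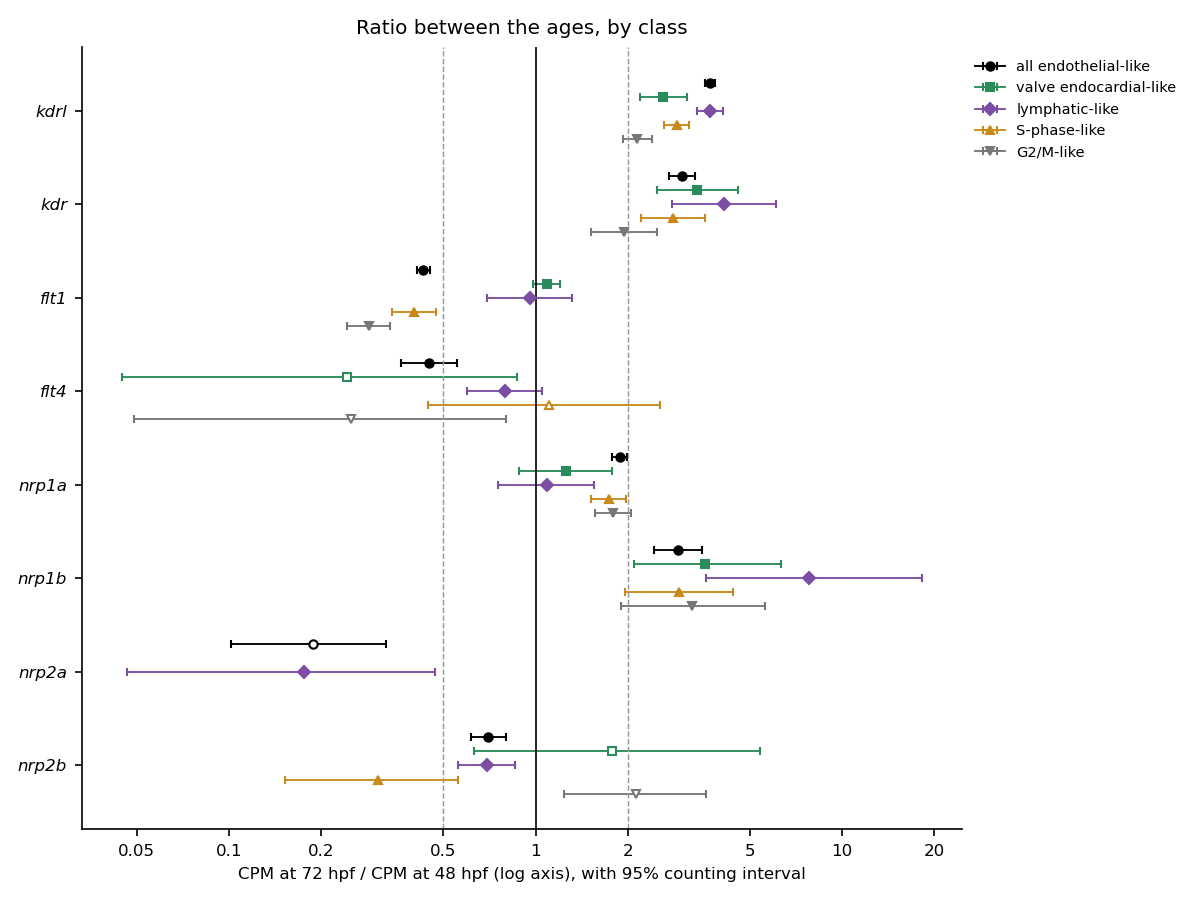
Ratio of the CPM at 72 hpf to that at 48 hpf (horizontal log axis) for each gene in all endothelial-like cells and in 4 classes, with 95% counting intervals. The dashed lines mark ratios of 0.5 and 2, open symbols are genes under 10 CPM at both ages, groups with fewer than 3 UMIs are not drawn, and *kdrl* lies right of 2 in all 5 groups while *flt1* lies at 1.09 in valve endocardial-like and 0.29 in G2/M-like cells.

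Blood-like cells at 72 hpf had low levels of nearly all 8 genes. All 6 genes that could be tested were lower than in the endothelial-like cells, in a comparison where 55.9% of all genes tested were called and the median gene was at -0.11 on the log2 scale. The level of *kdrl* was 6.07 CPM (44 UMIs) in the blood-like cells, against 441 in the endothelial-like cells, and *flt1* had 8 UMIs in all. The difference in *nrp2b*, at 5.52 CPM in the blood-like and 15.2 in the endothelial-like cells, did not hold after thinning, where its ratio turned the other way. Under 10 CPM and so not tested, *nrp2a* had 37 UMIs in the blood-like cells (5.10 CPM) and 15 in the endothelial-like cells (0.631 CPM). The 15 blood-like cells at 48 hpf had no UMI of any of the 8 genes, which by the limit of 3 counts allows up to 20.0% of such cells to have one.

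Most of these few receptor UMIs came from a small sub-cluster. When the blood-like cells were clustered again, a group of 25 cells, with the chamber markers *tmem88a* and *id2b* among its leading genes, held 39 of the 44 *kdrl* UMIs (79.5 CPM) and 29 of the 48 *nrp1a* UMIs. It also had 514 CPM of the endothelial cadherin *cdh5*, against 4.59 in the remaining 363 blood-like cells, at a like depth (median 18881 and 18083 UMIs). Whether these are mixed droplets was not tested. Without them, chosen after their values were seen, *kdrl* was at 0.740 CPM (5 UMIs) and *flt1* at 0.296 (2 UMIs).

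A neuropilin UMI was found in 23.2% of all blood-like cells at 72 hpf, or 4.90% after thinning, and 2 small groups among them are described here. The 62 thrombocyte-like cells at 72 hpf, led by *admb*, *hbegfb*, *rac3a* and the CD41 gene *itga2b*, had 53.0 CPM of *nrp2b* (33.2 to 80.3), in 33.9% of cells, and 19.3 CPM of *nrp2a* (8 UMIs). They had no UMI of *kdrl*, *kdr*, *flt1*, *flt4*, *nrp1a* or *nrp1b*, which allows up to 7.23 CPM of each. The 23 macrophage-like cells at 72 hpf had 38.4 CPM of *nrp1a* (19.9 to 67.2), in 34.8% of cells, no UMI of *nrp2a* or *nrp2b*, and 3 *kdrl* UMIs. These values rest on 22 of the 40 *nrp2b* UMIs and 12 of the 48 *nrp1a* UMIs of the blood-like cells. The thrombocyte-like cells held only 8 of the 37 *nrp2a* UMIs, so most *nrp2a* UMIs lay in other blood-like cells.

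Within single cells, the question was whether *kdrl* was found together with *kdr* or *flt1* more often than apart from it. Over the endothelial-like cells at 72 hpf, 32.5% (30.5 to 34.5) of the 2153 cells with *kdrl* and 28.9% (26.4 to 31.5) of the 1241 cells without it had *kdr*. At 48 hpf these shares were 22.1% (20.0 to 24.3) and 14.1% (12.1 to 16.3). For *flt1* they were 34.6% (32.6 to 36.7) and 28.6% (26.1 to 31.2) at 72 hpf, and 71.5% and 66.1% at 48 hpf. Cells with *kdrl* were also deeper, however: cells with 5 or more *kdrl* UMIs had a median of 7135 UMIs at 72 hpf and 13496.5 at 48 hpf, against 5519 and 9496 in cells with none.

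At equal depth the intervals overlapped, which does not show that the shares were equal, since thinning discards most UMIs. With each cell thinned to 2000 UMIs, *kdr* was found in 11.05% (9.42 to 12.8) of cells with *kdrl* and 10.9% (9.54 to 12.3) of cells without it at 72 hpf, and in 4.70% (3.00 to 6.97) and 4.31% (3.49 to 5.25) at 48 hpf. For *flt1* the shares were 14.8% (13.0 to 16.8) and 13.3% (11.9 to 14.8) at 72 hpf, and 30.5% (26.4 to 34.8) and 31.8% (29.9 to 33.8) at 48 hpf. Within the classes, the thinned intervals for *kdr* and *flt1* also overlapped between cells with and without *kdrl*. The chamber endocardial-like cells came nearest to a difference for *flt1*, with 10.6% (7.71 to 14.0) of cells with *kdrl* and 6.29% (4.51 to 8.50) of cells without it.

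**Figure D5:**
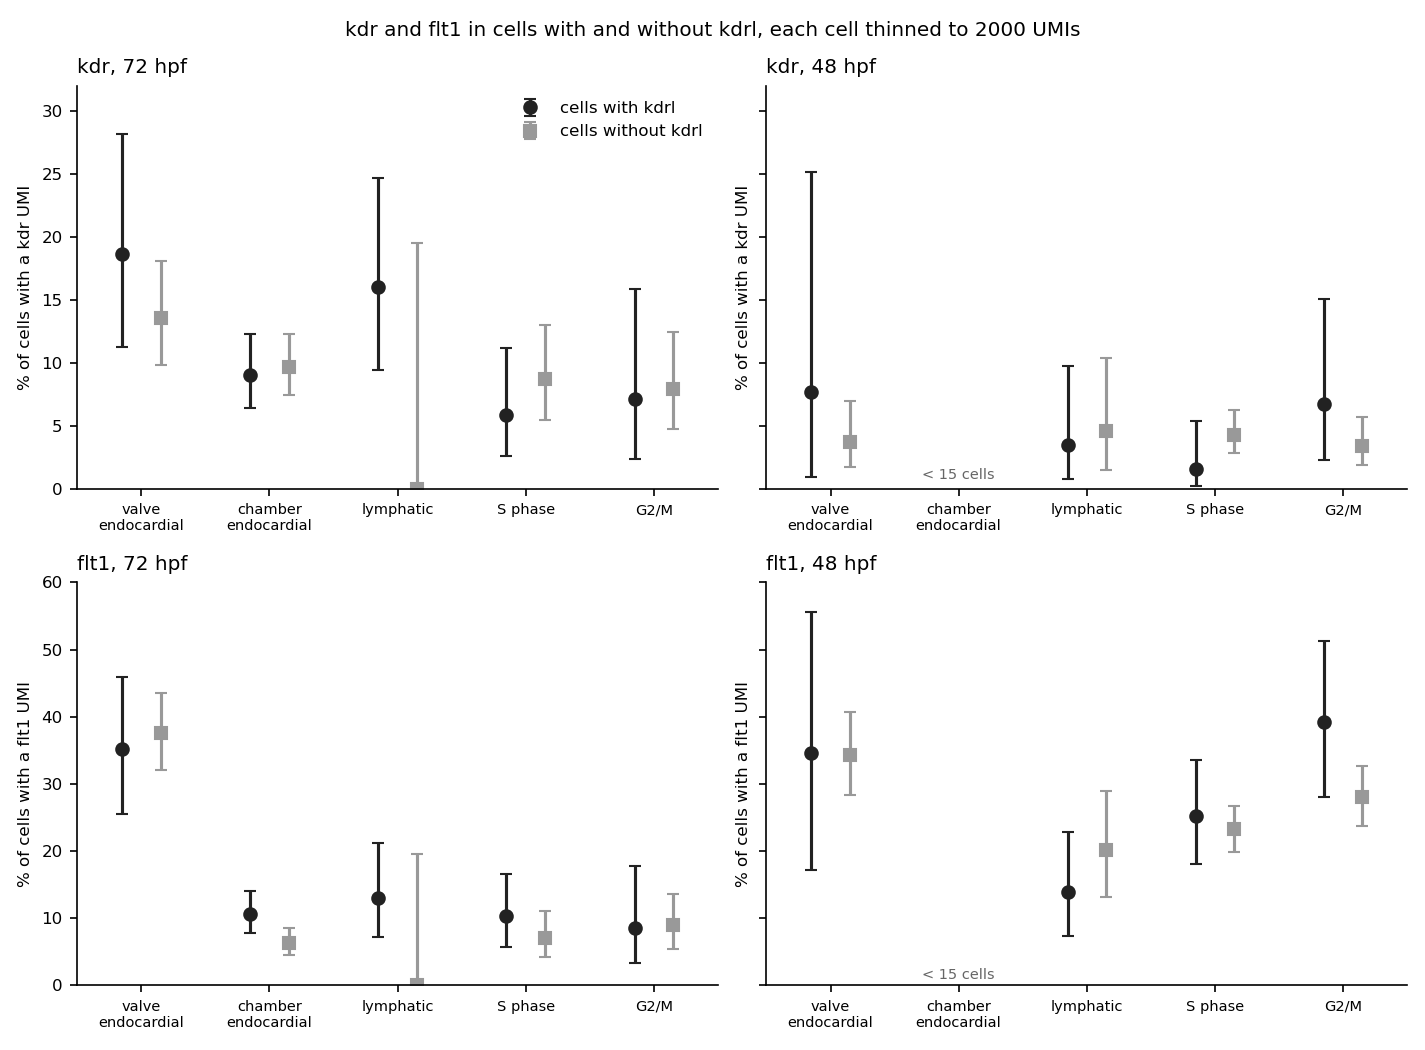
Share of cells with a *kdr* UMI (upper panels) or a *flt1* UMI (lower panels), in percent, among cells with *kdrl* (dark circles) and without *kdrl* (grey squares), each cell thinned to 2000 UMIs, by class, with 72 hpf left of 48 hpf. Lines are exact 95% intervals, which overlap in every class drawn, as for *kdr* in chamber endocardial-like cells (9.05% with *kdrl* and 9.68% without).

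Levels in CPM were compared as well. At 72 hpf *kdr* was at 64.2 CPM (58.0 to 70.9) in the cells with 5 or more *kdrl* UMIs and at 58.9 (53.6 to 64.6) in those with none. At 48 hpf it was at 35.2 CPM (28.0 to 43.5) in the 160 cells with 5 or more and at 15.7 (13.5 to 18.2) in the 1119 with none. For *flt1* the levels were 102 and 88.7 CPM at 72 hpf, and 187 and 213 at 48 hpf. Thus *kdr* was higher beyond counting error in the cells with most *kdrl* at 48 hpf, and not at 72 hpf, where the intervals overlap. These cells were not of 1 class, since their *nrp2b* at 48 hpf was at 79.1 CPM, against 6.19 in cells with no *kdrl*. By class, *kdr* at 48 hpf was at 22.1 CPM in the lymphatic-like and 19.3 in the other endothelial-like cells. The part of class make-up in the *kdr* difference was not tested.

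Of the 28 pairs of the 8 genes, 15 could be judged per library after thinning, with at least 50 cells carrying each gene. Intervals lay apart only for *kdrl* with *nrp2b* at 72 hpf, and for *kdrl* with *flt4*, *kdrl* with *nrp2b* and *flt4* with *nrp2b* at 48 hpf. At 48 hpf 24.0% (13.1 to 38.2) of the endothelial-like cells with *flt4* had *nrp2b*, against 2.89% (2.28 to 3.61) of those without. All of these are genes high in the lymphatic-like class. Within that class at 48 hpf, *nrp2b* was found in 32.4% (18.0 to 49.8) of cells with *flt4* and 32.1% (24.9 to 39.9) of cells without it. The pairing of *flt4* with *nrp2b* was thus not seen inside the class at equal depth. Only 37 of its thinned cells had *flt4*, so this does not show that the pairing was absent. Before thinning, *nrp2b* was found in 90.8% (83.3 to 95.7) of cells with *flt4* and 76.5% (66.9 to 84.5) of cells without it. At 72 hpf, however, 252 of the 361 *nrp2b* UMIs of the endothelial-like cells lay outside the class, 102 of them in cluster 6. The part of class make-up in the pair of *kdrl* with *nrp2b* was not tested.

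The wider VEGF pathway was read from a fixed list of 53 symbols, 48 of which were found. In valve endocardial-like against other endothelial-like cells, 4 of 21 genes tested were higher and 7 lower at 72 hpf (20.2% of all genes tested were called), and 2 of 17 higher and 5 lower at 48 hpf (17.9%). The apelin gene *apln*, a ligand that tip cells express, was at 29.2 CPM at 72 hpf and 21.6 at 48 hpf in the valve endocardial-like cells, against 9.23 and 6.59 in the others. The transcription factor gene *egr3*, which Vegfa induces in human endothelium, was 2.48 times higher at 72 hpf and 2.97 times higher at 48 hpf. The proteoglycan gene *esm1*, a further VEGF response gene, was at 0.19 times the level of the other endothelial-like cells at both ages. Those others include cluster 11, high in *esm1*, and at 48 hpf cluster 2, with *esm1* among its leading genes. How far the *esm1* ratio rests on these clusters was not tested. Against this mixed group, the genes of VEGF response did not move in 1 direction in the valve endocardial-like cells.

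In lymphatic-like against other endothelial-like cells, 7 of 21 pathway genes tested were higher and 6 lower at 72 hpf (25.3% of all genes tested were called), and 2 of 17 higher and 6 lower at 48 hpf (16.2%). The signal transducer *plcg1*, which acts directly downstream of Vegfr2, was at 142 CPM at 72 hpf and 77.4 at 48 hpf in this class, against 44.9 and 38.1 in the others. The calcineurin regulator gene *rcan1a*, a response gene, was lower, at 0.31 times at 72 hpf and 0.28 times at 48 hpf. The Vegfr3 ligand gene *vegfc* had 2.92 CPM at 72 hpf in the lymphatic-like cells, against 16.5 in the other endothelial-like cells. At 48 hpf it had no UMI in the lymphatic-like cells, against 14.1 CPM in the others, while cluster 11 had 91.5.

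In the valve interstitial-like cells, 5 of 23 pathway genes were higher and 10 lower than in the endothelial-like cells at 72 hpf, where 19.7% of all genes tested were called. The Vegfa gene *vegfaa* was at 11.5 CPM there and 3.11 in the endothelial-like cells (ratio 3.71, 2.35 to 5.71). The semaphorin gene *sema3e* was at 13.0 CPM and nearly absent from the endothelial-like cells, at 0.0841. Blood-like cells had 2 of 19 genes higher, among them *vegfaa* at 11.6 CPM, and 13 lower, where 55.9% of all genes tested were called. By age, 2 of 18 pathway genes were higher and 2 lower at 72 hpf over all endothelial-like cells, where 13.4% of all genes tested were called. Among them *esm1* was at 27.4 CPM at 72 hpf, against 155 at 48 hpf. The gene *esm1* was among the leading genes of cluster 2, which had no cells at 72 hpf.

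The genes whose levels were most like those of each receptor were found by Pearson correlation of log2(CPM + 10) over the same 17 groups, among 4174 genes. These correlations are descriptions over groups of 2 libraries, which share age and depth. For *kdrl* they were *itga6b* (0.93), *arhgef9b* (0.93) and *micall2a* (0.92), and for *kdr* *zgc:162989* (0.94), *rybpa* (0.94) and *jund* (0.92). For *flt1* they were *niban2b* (0.95), *podxl* (0.94) and *efna1b* (0.91), of which *podxl* was also a valve marker here. For *flt4* they were *lyve1b* (0.97), *stab2* (0.95) and *CABZ01075125.1* (0.95), and *nrp2a* was most like *tlx2* (0.95), *cxcl12b* (0.90) and *lrmp* (0.86). Of these, *lyve1b* was also a naming marker of the lymphatic-like clusters, and *cxcl12b* and *lrmp* were leading genes of cluster 14. The *nrp2a* values rest mainly on cluster 14 at 48 hpf, with 33.3 CPM of *nrp2a*, against 5.89 in the next group. For *nrp2b* they were *rab11bb* (0.92), *arhgap36* (0.91) and *flrt2* (0.88). For *nrp1a* they were *cyp2ad3*, *nfia* and *dab2ipa* (each 0.89), and for *nrp1b* *tspan31* (0.88), *kdr* (0.87) and *si:dkey-126g1.9* (0.86). Among the 8 genes the closest pairs were *kdr* with *nrp1b* and *flt4* with *nrp2b*, both at 0.87. The *flt4* and *nrp2b* values rest mainly on the lymphatic-like clusters 14 and 15. There *flt4* was at 117 and 94.2 CPM (median of the groups 2.35) and *nrp2b* at 229.6 and 156 CPM (median 4.88). For *kdr* and *nrp1b*, most groups at 72 hpf stood above those at 48 hpf, so the pair also follows the library.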

How the data were processed

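For each library, the deposited file holds UMI counts of every gene in every cell, as whole numbers without normalization. The submitters' processing notes name STARsolo, Scanpy and danRer11, and versions are not given in the sources used here. All deposited cells were used, and no doublet caller was run; leaving out the deepest cells was an alternative instead.

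Each cell's counts were scaled to a sum of 10000 and put on a log scale with scanpy 1.11.5, under Python 3.11.15 with scikit-learn 1.9.0, anndata 0.12.19, pandas 2.3.3, numpy 2.4.6 and scipy 1.17.1. The 2000 most variable genes, without the 8 genes and the VEGF pathway list, gave 30 principal components and 15 neighbours. These were clustered with leidenalg 0.10.2 (igraph 0.11.9) at resolution 0.6. A cluster took a name with at least 3 markers among its 50 leading genes (log2 ratio of at least 1, in at least 25% of cells), thresholds that were chosen with the data in view. The authors' annotation of single cells was not used here, so class limits can differ from the study's. Many of the valve, chamber and lymphatic markers, however, are among the genes that the study lists as most raised in its own clusters. The names are thus not independent of those clusters.

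Levels are pooled CPM with exact Poisson intervals, shares have Clopper-Pearson 95% intervals and ratios exact conditional ones. Thinning drew 2000 UMIs per cell, and no cell had fewer. The ratio, its interval, the call rule and the thinning were tried on simulated counts with Poisson error only. Clustering, naming and variation between libraries were not simulated. Named genes are the 8 genes, pathway genes at 10 CPM or more in a class, the 3 genes most like each of the 8 among those at 50 CPM or more in a group, and the leading genes of clusters. Genes named for sub-clusters, and *cdh5*, were picked with their values known. The genes and lists were chosen with earlier results of these data known. Not found by symbol were *bmx*, *tmem100a*, *thbs1a* and *lect2.1* of the markers and *pgfa*, *plxna1b*, *sh2d2a*, *shb* and *yes1* of the pathway list. Figures were drawn with matplotlib 3.10.9.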

Additional observations from a re-analysis of the deposited data

How the results depend on the processing

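No paired analysis was possible because each age had 1 library. The alternatives were a Leiden resolution of 0.3 or 1.0, each library clustered on its own, 50 principal components, the 5% of cells with most UMIs left out, thinning to 2000 UMIs, a mean over cells and no minimum CPM; cluster 2 counted as valve or left out was added after seeing the data. The counts of genes called for lymphatic-like, valve interstitial-like and blood-like cells and for age over all endothelial-like cells stayed within 1.5 times under those that gave a value. For valve endocardial-like against other endothelial-like cells, the count of 4 at 72 hpf became 2 at resolution 0.3 (816 cells in the class) and 2 with 50 components (772 cells). There the log2 ratio of *kdrl* turned to 0.24 and 0.053, and that of *nrp2b* to 0.39 and 0.12. The count of 4 at 48 hpf became 2 at resolution 1.0 (779 cells) and 2 with cluster 2 counted as valve (1152 cells). At resolution 0.3 only 9 cells at 48 hpf took the name, which gave no value. Thinning left 2 of the 3 calls between the ages in valve endocardial-like cells, and turned the log2 ratio of *nrp2b* in blood-like against endothelial-like cells to 0.10. In total, 18 results changed without reversing under thinning, 1 reversed and 42 stayed the same. With 50 components these counts were 9, 2 and 58. With each library clustered on its own, 8 changed and 61 stayed the same. Without a minimum CPM all 69 stayed the same.

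In cells with against cells without *kdrl*, the difference in the share with *kdr* at 48 hpf was 7.99 percentage points, 0.40 after thinning and 2.60 with at least 2 UMIs for a positive cell. That for *flt1* at 48 hpf was 5.35 points and -1.35 after thinning. Genes under 10 CPM in both groups, such as *nrp2a* in most comparisons, were not tested.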

Other observations

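The unnamed cluster 11 (209 cells at 72 hpf, 67 at 48 hpf) combined high *kdrl* with high *nrp1a* and almost no *flt4*, the Vegfc receptor gene. Its *nrp1a* was at 211 CPM at 72 hpf and 154 at 48 hpf, and its *flt1* at 136 and 187 CPM. In contrast, *flt4* had 1 UMI at 72 hpf and 2 at 48 hpf, and *nrp2b* had 0 and 1. Its *vegfc*, the gene of a ligand of Flt4, was at 33.1 CPM at 72 hpf and 91.5 at 48 hpf, and its *esm1* at 199.5 and 383 CPM.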
